A study of Mus musculus with 80 samples.

Results

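The translation factor genes examined here were the 69 protein-coding genes of the GENCODE release M21 annotation (mouse genome build mm10, GRCm38) whose symbols start with Eif or Eef, out of 21938 protein-coding genes. RXR-DNA binding had been measured by ChIP-Seq in 40 mouse livers, 5 in each of 8 groups, and each ChIP library was compared with an input library of its own. A gene was counted in a liver when at least 1 RXR peak overlapped one of its exons or introns, and its strength was the highest fold enrichment (ChIP over local background at the peak's summit) among those peaks. A gene or site is called recurrent, or said to have a recurrent peak, when at least 3 of the 5 livers of a group had a peak in it. At a gene these peaks may lie at different places in different livers.

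The livers came from male mice aged 5 months that had been fed for 12 weeks. The study's methods give C57BL6/J mice from a supplier as the WT mice and do not state the strain of the KO mice. WT mice received control diet (WT Control), control diet with pioglitazone (WT Pio), high-fat diet (WT HFD) or high-fat diet with pioglitazone (WT HFD-Pio). The KO mice, made by crossing mice with a loxP-flanked PPARγ gene to mice with Cre under the albumin promoter, received the same 4 diets (KO Control, KO Pio, KO HFD and KO HFD-Pio). That promoter is active in hepatocytes, so the other cells of a KO liver still carry an intact PPARγ gene, and peak lists cannot show the deletion itself. Pioglitazone is a drug that activates PPARγ, the nuclear receptor that binds DNA as a pair with RXR. The antibody recognised RXRα, RXRβ and RXRγ. For 15 KO ChIP samples (all but KO Control) the labels name no antibody while the titles name RXR, so that the values of KO Pio, KO HFD and KO HFD-Pio rest on the titles and on the study's account of RXR ChIP-Seq in both genotypes.

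Both genotypes differed in depth and in peak calling. The WT libraries kept 2035170.0 to 4256749.0 tags and were called at a p cutoff of 0.001, whereas the KO libraries kept 627698.0 to 1057899.0 tags and were called at a q cutoff of 0.05. Genotype, source of the mice, depth and cutoff therefore cannot be told apart in any comparison of WT with KO. In 6 treated WT libraries (WT Pio livers 2, 3 and 5 and WT HFD-Pio livers 1, 4 and 5) the estimated fragment length was 45 to 48 bp, against 119 to 292 bp in all other libraries. Peak lists hold no reads per gene, so no counting interval was computed.

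Translation factors carry messenger RNA through the ribosome. Initiation factors (eIFs) bring the initiator tRNA, the mRNA cap and the small ribosomal subunit together and select the start codon, and elongation factors (eEFs) deliver each further tRNA and move the ribosome along the mRNA. In liver, as in other tissues, their genes are broadly transcribed, and the rate of initiation is set by nutrients and stress through phosphorylation of eIF2 and through proteins that bind the cap-binding factor eIF4E.

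PPARγ with RXR binds DR1, a direct repeat of the hexamer AGGTCA with 1 base of any kind (N) between the copies. The 6 stretches that follow are shown because they hold the closest DR1 matches at member sites with a recurrent peak in treated WT or in KO livers. Each is read 5′ to 3′ on the stated strand of mm10, with the 13 matched bases in capitals, and each match has 2 mismatches, which are given as the motif's base, its position from 1 at the motif's 5′ end and the genome's base.
Eef1b2, exon 2 of 6, chr1:63177806-63177835, minus strand, G2T and T4A: acgtagggcATGACACAGGTCAgcaggtgg
Eif3c, exon 16 of 21, chr7:126552125-126552154, plus strand, C5G and T11G: tgatgtgcAGGTGAAAGGGCAcctgccggc
Eif3e, exon 12 of 13, chr15:43251468-43251497, minus strand, G3A and C12A: cagaacagtAGATCAGAGGTAAgaatcaaa
Eif4a1, exon 11 of 11, chr11:69667447-69667476, plus strand, A6G and T11A: ctagggccAGGTCGCAGGACAgcccctcaa
Eif4g1, exon 16 of 32, chr16:20682634-20682663, minus strand, T4C and G10A: ttcagctgtAGGCCAAAGATCAcattaaga
Eif4g3, exon 6 of 34, chr4:138096922-138096951, plus strand, C5A and T11G: cataccacAGGTAACAGGGCAgcctgggtc

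At the Eef1b2, Eif3c and Eif3e sites peaks were called in 4 of 5 WT Pio livers and in at least 3 of 5 livers of each KO group. The Eif4a1 site had a peak in 3 WT Pio livers, 1 WT HFD-Pio liver and no KO liver, and the Eif4g1 and Eif4g3 sites had peaks in KO livers only. A DR1 match of this quality was found within 100 bp of the summit, on either strand, at 4 of 59 member sites with a recurrent peak in WT Pio or WT HFD-Pio (6.78%). Of the other sites of the genome that recurred in those groups, 2.08% held one. Among sites with a recurrent peak in a KO group, 5 of 211 member sites (2.37%) and 2.64% of other sites held one. No member site had a match with at most 1 mismatch. The search was chosen after the peaks had been seen, these shares were not tested, and a match is a description of letters and not a binding site.

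In untreated WT livers no translation factor gene had a recurrent peak, and with pioglitazone 29 of 69 had one on control diet (42.0%) and 24 of 69 on high-fat diet (34.8%). Of all protein-coding genes, 12.7% (WT Pio) and 10% (WT HFD-Pio) had one with the drug, against 2.21% (WT Control) and 0.515% (WT HFD) without it. In KO livers recurrent peaks were found at 46 members in KO Control, 48 in KO Pio, 48 in KO HFD and 43 in KO HFD-Pio, or 62.3% to 69.6% of them, with and without the drug. The corresponding shares of all genes were 24.3%, 29%, 25.7% and 27.6%. A peak in 5 of 5 livers was found at 11 members in WT Pio, at 2 in WT HFD-Pio and at 29 to 34 in each KO group. The share of all genes with a peak in 5 of 5 livers was not counted, so these numbers cannot be compared with other genes.

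The number of members with a peak in a single liver showed the same order with wide spread in treated WT. Livers 1 to 5 had 0, 4, 1, 2 and 0 such members in WT Control and 0, 0, 0, 1 and 0 in WT HFD. In WT Pio they had 29, 35, 47, 13 and 33, and in WT HFD-Pio 42, 3, 13, 35 and 32. Every WT Pio liver lay above every WT Control liver, whereas the lowest WT HFD-Pio liver (liver 2, with 3 members) was only 2 above the highest WT HFD liver. The share of other genes with a peak overlapped between WT Pio livers (3.74% to 32.8%) and WT Control livers (1.85% to 13.9%). It was 3.7% to 22.7% in WT HFD-Pio livers and 0.96% to 2.98% in WT HFD livers. KO livers had 31 to 56 members, with group means of 44 ± 6.82 (KO Control), 47.2 ± 2.77 (KO Pio), 45.2 ± 9.12 (KO HFD) and 45.4 ± 2.7 (KO HFD-Pio; SD, n = 5 each). The number of members did not always follow the length of the peak list. WT Control liver 2 with 12919 peaks had 4 members, and WT HFD-Pio liver 4 with 11132 peaks had 35. The share of members with a peak was 1.17 to 5.04 times that of other genes in the 10 treated WT livers and 2.02 to 3.6 times in the 20 KO livers. It was 0 to 0.459 times in WT Control livers and 0 to 1.51 times in WT HFD livers.

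**Figure D1:**
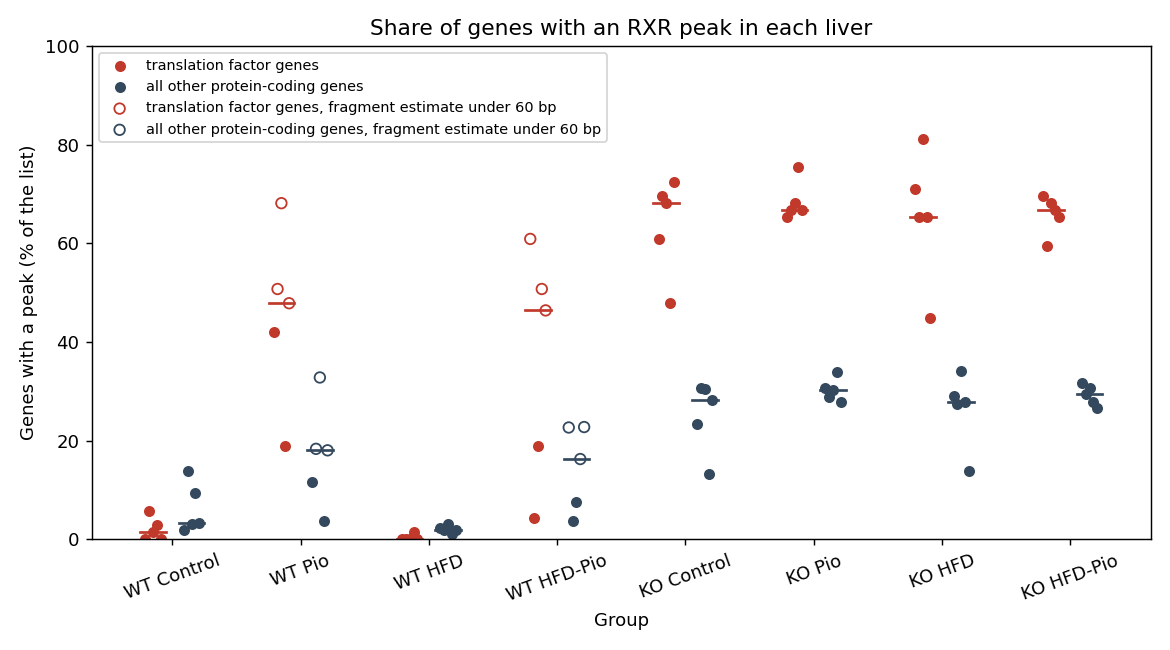
Percentage of translation factor genes and of all other protein-coding genes with an RXR peak in each liver (y axis) by group (x axis); each point is 1 liver and open points are the libraries with a fragment estimate under 60 bp. The untreated WT livers lie at 5.8% or below for translation factors, treated WT livers range from 4.35% to 68.1%, and KO livers from 44.9% to 81.2%.

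Other housekeeping genes stood higher still in treated WT. Of 92 cytosolic ribosomal protein genes, which encode the ribosome itself, 69 had a recurrent peak in WT Pio (75%) and 62 in WT HFD-Pio (67.4%), but 37 to 41 in the KO groups (40.2% to 44.6%). Of 50 proteasome subunit genes, which encode the cell's main protein-degrading complex, 36 (72%) and 27 (54%) had one in the treated WT groups and 31 to 34 in the KO groups. Translation factors therefore had a smaller recurrent share than ribosomal protein genes in treated WT and a larger one in KO. The difference between the lists was not tested, and member exons made up 15.8% of member gene length, against 9.05% for other genes and 47.3% for ribosomal protein genes.

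**Figure D2:**
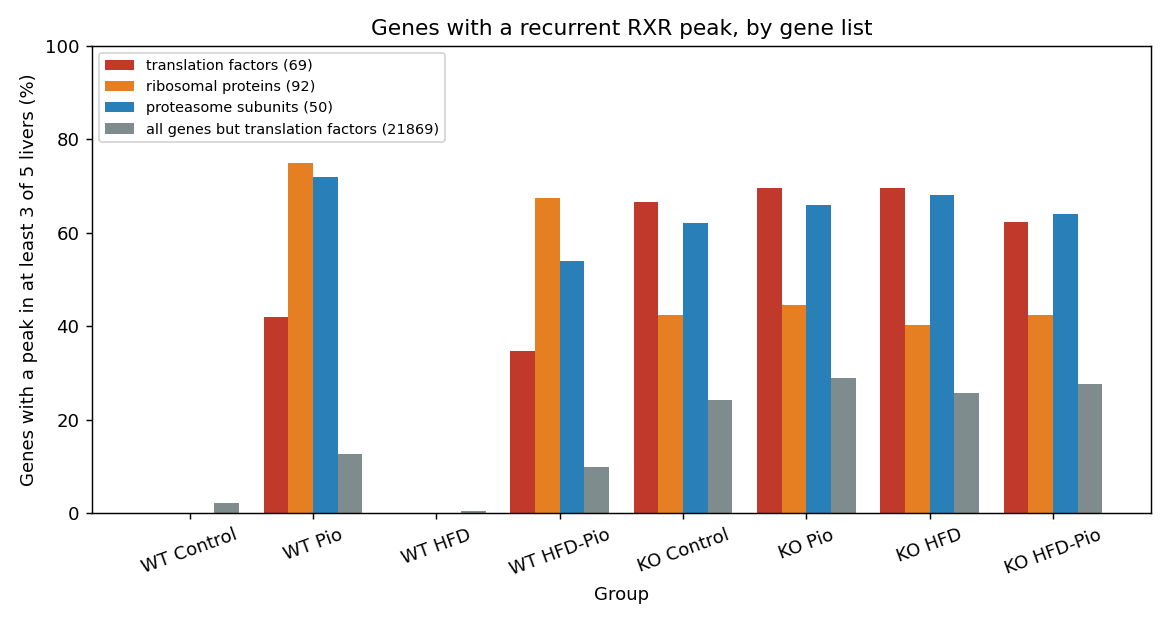
Percentage of genes with an RXR peak in at least 3 of 5 livers (y axis) in each group (x axis) for translation factor, ribosomal protein and proteasome subunit genes and for all genes but translation factors. Bars of the 3 lists are at 0 in both untreated WT groups, and translation factor bars run from 34.8% to 42.0% in treated WT and from 62.3% to 69.6% in KO.

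The first comparison asked where pioglitazone added RXR peaks in WT livers. On control diet 28 members had a recurrent peak in WT Pio and none in any WT Control liver, a pattern called gained, against 7.5% of all genes, and no member showed the opposite pattern, called lost (0.0684% of all genes). On high-fat diet 24 of 69 members were gained in WT HFD-Pio relative to WT HFD, against 7.67% of all genes, and none was lost (0.00456% of all genes). The count on high-fat diet was 12 without WT HFD-Pio liver 1 or liver 5, 14 without liver 4, and 13 with all libraries held to q of 0.05 or less. With -log10 q of 5 or more in all libraries 17 and 6 members were gained on control and high-fat diet, and with lists of equal length 8 and 3. These contrasts share no livers, and 20 members were gained in both, which is 71.4% of the first list and 83.3% of the second. Of the 1617 and 1658 other genes gained, 887 were gained in both, or 54.9% and 53.5% of the lists. Eef1d, Eef2, Eif2b4, Eif2s2, Eif3a, Eif3f, Eif4a1 and Eif5 were gained on control diet alone and Eef1e1, Eif2a, Eif2b3 and Eif3h on high-fat diet alone, a difference between the diets that was not tested. Members had a peak in a median of 2 more livers with the drug on either diet, and all genes tested in a median of 1 more.

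No single gene passed the two-sided Fisher's exact test on livers with a peak after Benjamini-Hochberg adjustment over all genes tested, members included. The lowest adjusted p of a member was 0.306 for WT Pio against WT Control (10561 genes) and 0.359 for WT HFD-Pio against WT HFD (8769 genes). At an unadjusted p under 0.05 the test gave 23 of 54 members tested on control diet and 12 of 50 on high-fat diet, all with more livers in the treated group. Of all genes tested, 10.7% and 7.02% had more livers at that p, and 0% and 0.0114% had fewer. The smallest p that 5 livers against 5 allow is 0.00794, in this exact test and in the exact permutation test alike, and adding fold enrichment by the permutation test gave no adjusted call either. When the test was limited to genes that could reach an unadjusted 0.05, a choice made after seeing the data, Eef1a1 and Eif6 passed on high-fat diet (adjusted p 0.0424 each by Fisher's exact test, with 18.7% of those genes) and no member on control diet. The libraries of short fragment estimate were also left out, which lowers the number of livers and changes the rule as well. With only the 2 treated livers of longer fragment estimate, 11 of 69 members had a peak in both on control diet, with none in the untreated livers. On high-fat diet 2 members did so, Eef1a1 and Eif6. The shares of all genes were 1.4% and 1.07%. The part of fragment length in the result was not tested.

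Among elongation factors, Eef1a1, which encodes the eEF1A form that delivers aminoacyl-tRNA to the ribosome in most tissues, had a peak in all 10 treated WT livers. In WT Pio its strongest fold enrichment was 13.8, 20.5, 22.3, 4.61 and 15.1 in livers 1 to 5 (mean 15.3 ± 6.95, SD, n = 5), and in WT HFD-Pio it was 26.7, 3.97, 7.95, 29.8 and 12.6 (16.2 ± 11.4). None of the 10 untreated WT livers had a peak, so the groups did not overlap in presence. In KO livers it was present in all 20, at 23.4, 28.6, 33.1, 21.6 and 22.7 in KO Control and 26.9, 24.5, 29.5, 23.8 and 23.8 in KO Pio. On high-fat diet the values were 34, 26.9, 30.6, 19.6 and 23.4 in KO HFD and 31.3, 20.1, 21.7, 28.4 and 21.9 in KO HFD-Pio. KO Control and KO Pio overlapped, as did KO HFD and KO HFD-Pio.

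Eef2 encodes the translocase that moves the ribosome by 1 codon, and it showed the largest gap between the genotypes among elongation factors. Its strongest peak reached 3.04, 3.73, 4.56 and 2.82 in WT Pio livers 1, 2, 3 and 5, with no peak in liver 4, and 3.75 and 4.76 in WT HFD-Pio livers 1 and 4, with none in livers 2, 3 and 5. In KO livers it was 23.1, 31.4, 42.4, 29.8 and 32.6 in KO Control and 29.7, 30.4, 25.8, 45.4 and 27.5 in KO Pio. KO HFD had 30.5, 28, 42.4, 28.5 and 34.4, and KO HFD-Pio 30.3, 26.5, 27.2, 35.8 and 32.8. Every KO liver lay several-fold above every WT liver, and the 4 KO groups overlapped throughout.

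Eef1g encodes the gamma subunit of the eEF1B complex that recharges eEF1A with GTP, and it stood the other way round. Fold enrichment was 16.7, 19.6, 16.5, 3.06 and 13.1 in WT Pio (13.8 ± 6.41, SD, n = 5). In WT HFD-Pio it was 19.7, 4.85, 21 and 11 in livers 1, 3, 4 and 5, with no peak in liver 2. All 20 KO livers had a peak, with means of 3.9 ± 0.473 in KO Control, 4.3 ± 1.37 in KO Pio, 4.98 ± 1.18 in KO HFD and 4.92 ± 1.59 in KO HFD-Pio (SD, n = 5 each). In 4 of 5 WT Pio livers the value was above that of every KO liver, and liver 4 lay within the KO range.

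The other subunits of eEF1B, Eef1b2 and Eef1d, also had peaks in treated WT. Eef1b2 reached 6.61, 8.96, 11.8 and 17.8 in WT Pio livers 1, 2, 3 and 5 and 8.96, 4.23, 20 and 4.6 in WT HFD-Pio livers 1, 3, 4 and 5, and it was present in all KO livers at 4.71 to 12.6. Eef1d had peaks in 3 WT Pio livers (2.81, 6.38 and 4.69) and 2 WT HFD-Pio livers (3.75 and 5.71). In KO Control, KO Pio, KO HFD and KO HFD-Pio it had 4, 5, 3 and 4 livers (2.78 to 6.35). Eef1a2, the form of eEF1A known from muscle and neurons, had no peak in any of the 20 WT livers and one in all 20 KO livers. Its values were 5.65, 7.55, 7.2, 6.84 and 5.59 in KO Control, 14.3, 8.74, 3.67, 10.1 and 9.01 in KO Pio, 9.59, 8.56, 7.51, 5.18 and 7.01 in KO HFD, and 6.39, 6.6, 5.72, 11.3 and 6.55 in KO HFD-Pio. The related genes Eef1a1 and Eef1a2 thus differed in presence in treated WT and shared it in KO. Of the 8 elongation factor genes, 5 had a recurrent peak in WT Pio, 4 in WT HFD-Pio and 7 in each KO group.

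**Figure D3:**
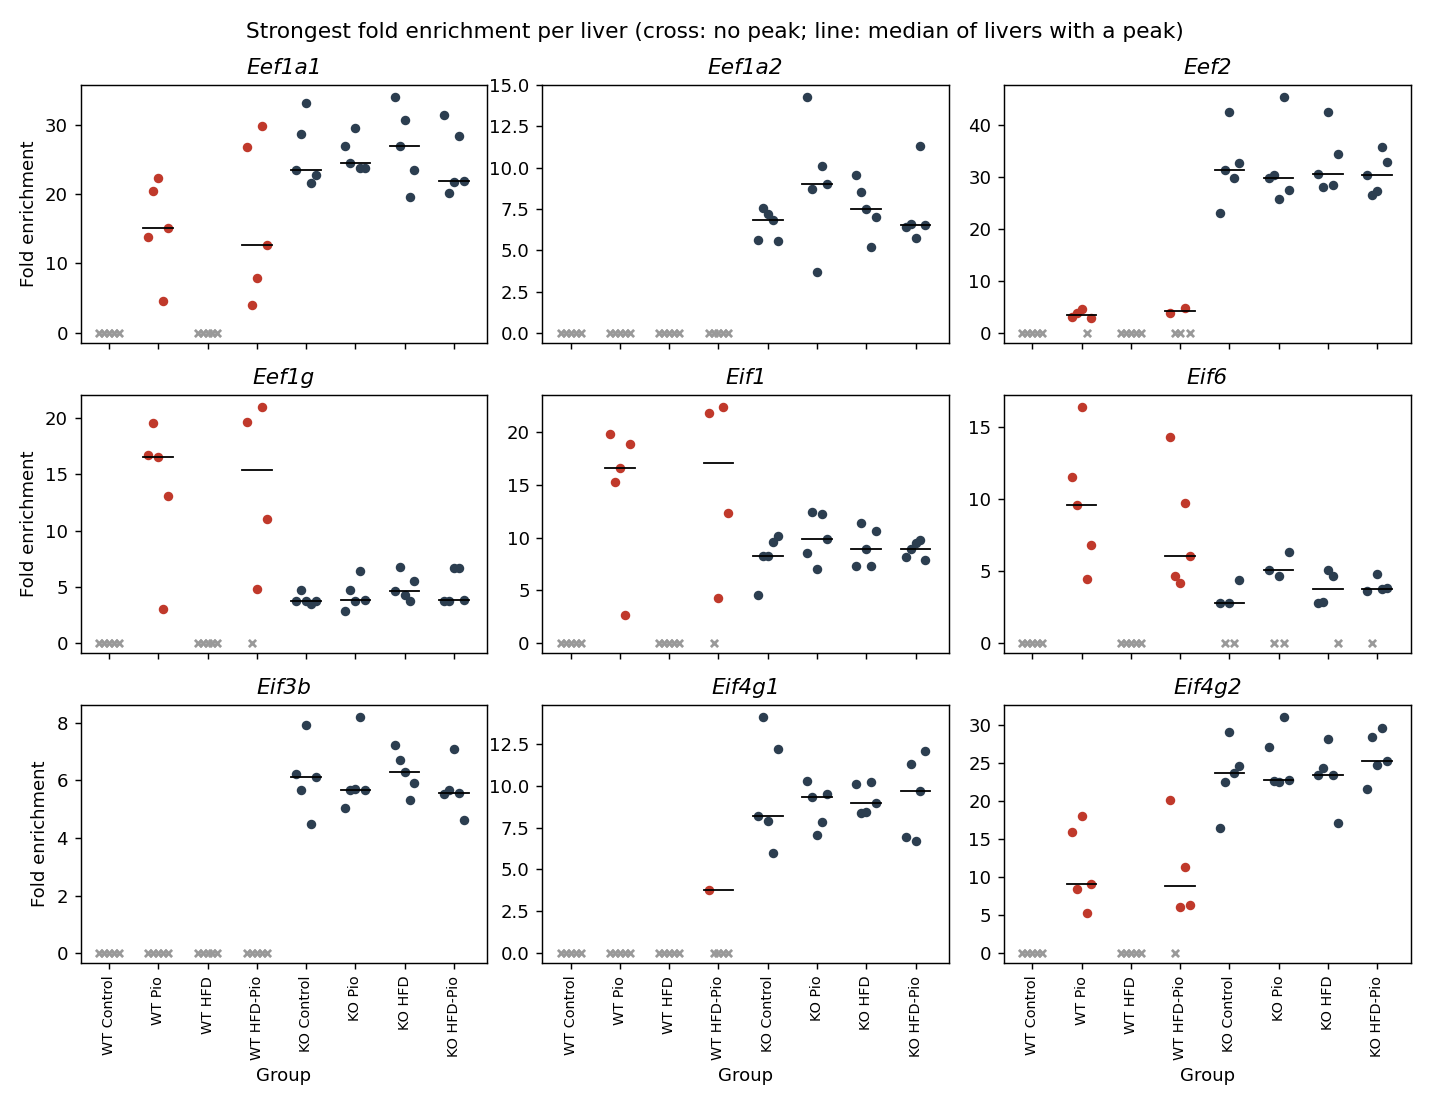
Strongest fold enrichment of RXR peaks (y axis) in each liver by group (x axis) at 9 translation factor genes; points are livers with a peak, crosses at 0 livers without one, and lines the median of the livers with a peak. Eef1g, Eif1 and Eif6 reach higher values in treated WT (up to 21, 22.4 and 16.4) than in KO, Eef2 and Eif4g2 reach higher values in KO (up to 45.4 and 31.1), and Eef1a2, Eif3b and Eif4g1 have no points in WT except 1 WT HFD-Pio liver at Eif4g1.

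Genes whose products choose the start codon were represented in treated WT by a single recurrent member. Eif1 encodes the factor that keeps the scanning ribosome from starting at the wrong codon. Its strongest peak was 19.8, 15.3, 16.6, 2.65 and 18.9 in WT Pio, and 21.8, 4.24, 22.4 and 12.3 in WT HFD-Pio livers 1, 3, 4 and 5, with none in liver 2 or in untreated WT. In KO livers it was present in all 20 at 4.52 to 12.4. Eif1ax, the X-linked gene for eIF1A, had a peak in 1 liver of each treated WT group (6.38 and 3.81) and in all KO livers (3.81 to 6.58). Eif1b, a close relative of Eif1, had 2 livers in each treated WT group and all 20 in KO (5.2 to 10.1). Eif1a had none in WT and 2 or 3 livers in each KO group, and Eif1ad, named for its eIF1A-like domain, had at most 2 livers in any group.

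The eIF2 complex carries the initiator tRNA, eIF2B recharges it with GTP and eIF5 triggers its GTP hydrolysis. Together with Eif2a and Eif2d, initiation factor genes outside these complexes, they are 12 genes, of which 4 had a recurrent peak in WT Pio, 3 in WT HFD-Pio and 5 to 8 in the KO groups. Eif2s1, the alpha subunit that stress kinases phosphorylate, had peaks of 6.08, 5.61, 6.38, 3.31 and 3.75 in WT Pio and of 4.69, 5.23 and 2.75 in WT HFD-Pio livers 1, 4 and 5. It had a peak in 1 KO Control, 1 KO Pio, 2 KO HFD and 1 KO HFD-Pio liver, at 2.82 to 3.8. Eif2s1 and Eif2b3 were the 2 gained members with no recurrent peak in a KO group. Eif5 had 4 WT Pio livers at 3.68 to 4.54, 2 WT HFD-Pio livers at 3.72 and 3.81, and all 20 KO livers at 4.56 to 11.1.

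Eif2s3y, the Y-linked gene for the gamma subunit, had no peak in WT livers and peaks in 4, 5, 4 and 4 livers of KO Control, KO Pio, KO HFD and KO HFD-Pio (3.74 to 5.21). Its X-linked partner Eif2s3x had a peak in 1 WT and 5 KO livers. Eif2b5, the catalytic subunit of eIF2B, had no peak in WT livers and 3, 3, 4 and 4 livers in the KO groups (2.8 to 6.12). Eif2b2, another eIF2B subunit, had 1 WT HFD-Pio liver (3.75) and 1, 4, 3 and 0 livers in the KO groups. The 4 kinases that phosphorylate eIF2 had no recurrent peak in WT. Eif2ak4, the sensor of amino acid shortage also known as GCN2, had 2 WT Pio livers (2.66 and 2.82) and 5, 3, 4 and 3 KO livers. Eif2ak1, the haem-regulated kinase, had 2 WT Pio livers, 1 liver each in WT HFD and WT HFD-Pio, and 3, 5, 4 and 4 KO livers (2.81 to 8.5). Eif2ak3, the kinase of the endoplasmic reticulum known as PERK, had 1 liver in each treated WT group (2.73 and 3.66) and 2, 3, 1 and 1 in KO.

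eIF3 is the large scaffold that joins the small ribosomal subunit to the mRNA-bound factors, and its genes were the most represented in treated WT. Of 14 eIF3 genes, 10 had a recurrent peak in WT Pio, 8 in WT HFD-Pio and 11 or 12 in the KO groups. Eif3i, a beta-propeller subunit, had 8.34, 10.3, 18.2, 3.96 and 10.3 in WT Pio and 10.2, 4.93, 8.57 and 4.58 in WT HFD-Pio livers 1, 3, 4 and 5, against 3 to 5 livers in each KO group at 3.6 to 8.49. Eif3k reached 7.6, 8.64, 19.1 and 10.3 in WT Pio livers 1, 2, 3 and 5 and 9.38, 2.82, 10.5 and 5.49 in WT HFD-Pio livers 1, 3, 4 and 5, and all KO livers had 3.91 to 7.88.

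Eif3l had 8.49, 4.65, 9.11, 4.95 and 9.38 in WT Pio, 9.38, 3.1, 7.62 and 6.41 in WT HFD-Pio livers 1, 2, 4 and 5, and 6.24 to 17.8 in all KO livers. Eif3h, a subunit of the complex's MPN-domain pair with Eif3f, had peaks in 4 WT Pio and 4 WT HFD-Pio livers (3.52 to 12.8), in 1 WT Control liver (3.73) and in all KO livers (4.36 to 10.5). Eif3b, an RNA-binding core subunit, had no peak in any WT liver and one in every KO liver. It measured 6.23, 5.66, 7.94, 4.5 and 6.12 in KO Control, 5.05, 5.66, 5.69, 8.2 and 5.67 in KO Pio, 7.22, 6.72, 6.28, 5.31 and 5.91 in KO HFD, and 5.52, 5.66, 7.1, 5.56 and 4.61 in KO HFD-Pio. Members of this one complex therefore differed in whether treated WT livers had a peak, while Eif3j1 and Eif3j2, the genes of its loosely bound subunit, were recurrent in no group.

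The eIF4 factors load mRNA by its cap. eIF4E holds the cap, eIF4G is the scaffold and eIF4A the helicase that unwinds the leader. Of these 12 genes, 7 had a recurrent peak in WT Pio, 6 in WT HFD-Pio and 9 or 10 in the KO groups. Eif4g2, which encodes an eIF4G relative that lacks the eIF4E-binding region, had 15.9, 8.39, 18.1, 5.24 and 9.08 in WT Pio and 20.2, 6.1, 11.4 and 6.41 in WT HFD-Pio livers 1, 3, 4 and 5. In KO it had 16.5, 22.6, 29.1, 23.7 and 24.6 in KO Control and 27.2, 22.7, 22.5, 31.1 and 22.8 in KO Pio. KO HFD had 23.5, 24.4, 28.2, 23.4 and 17.2, and KO HFD-Pio 21.6, 28.5, 24.8, 29.6 and 25.3. All KO Pio and KO HFD-Pio livers lay above all treated WT livers of the same diet. Eif4g1, the main scaffold, had a peak in 1 WT HFD-Pio liver (3.75) and in no other WT liver, against all 20 KO livers at 5.99 to 14.1.

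Eif4a2 had 18.6, 6.55, 7.29, 7.15 and 6.57 in WT Pio, 9.38, 3.88, 8.47 and 4.39 in WT HFD-Pio livers 1, 3, 4 and 5, and 7.48 to 17.1 in KO. Its paralogue Eif4a1 had peaks in 4 WT Pio and 2 WT HFD-Pio livers (3.75 to 9.11) and 4, 4, 5 and 4 livers in the KO groups (3.77 to 10.1). Eif4e, the cap-binding protein, had 9.12, 4.68, 11.8, 3.9 and 5.63 in WT Pio and 10.3, 6.67 and 2.7 in WT HFD-Pio livers 1, 4 and 5, against 2.81 to 6.49 in 19 of 20 KO livers. Eif4e2, a cap-binding relative known for repression of translation, had 9.88, 7.46, 14.6, 3.16 and 9.38 in WT Pio and 11.3, 2.82, 8.57 and 4.58 in WT HFD-Pio livers 1, 3, 4 and 5. In KO it was 3.68 to 5.76 in 17 of 20 livers, and WT Pio liver 4 and WT HFD-Pio liver 3 lay below all of these. Eif4e1b had no peak in any library, and Eif4b, a cofactor of the helicase, had 2 WT Pio and 1 WT HFD-Pio livers (3.64 to 6.67) against all 20 KO livers at 8.37 to 15.7.

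The proteins that hold eIF4E away from eIF4G had no recurrent peak in WT. Eif4ebp1, the insulin-responsive form, had 1 liver in WT Pio (2.96) and 1 in KO Pio (3.79). Eif4ebp2 had 1 liver in WT Pio (3.64) and all 20 KO livers at 4.68 to 7.97. Eif4enif1, the transporter that takes eIF4E into the nucleus, had no WT liver and all 20 KO livers at 2.81 to 7.84.

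Late factors were divided in the same way. Eif6, which keeps the large ribosomal subunit from joining too early, had 11.5, 9.6, 16.4, 4.45 and 6.79 in WT Pio and 14.3, 4.65, 4.16, 9.71 and 6.01 in WT HFD-Pio. Its KO values were 2.77 to 6.3 in 3, 3, 4 and 4 livers of the KO groups. Eif5a, the factor that relieves stalled elongation, had 6.08, 3.74, 4.56 and 3.75 in WT Pio livers 1, 2, 3 and 5, 3.75, 3.76 and 3.65 in WT HFD-Pio livers 1, 4 and 5, and 6.89 to 17.2 in all KO livers. Among 6 modifiers of elongation factors only Eef2k, the kinase that inhibits eEF2, was recurrent in a group. It had 2 WT Pio livers (3.45 and 3.75), no WT HFD-Pio liver, and 5, 5, 3 and 4 livers in the KO groups (2.83 to 10.5). The other 5, all methyltransferases, had 1 to 3 livers of 40 each.

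**Figure D4:**
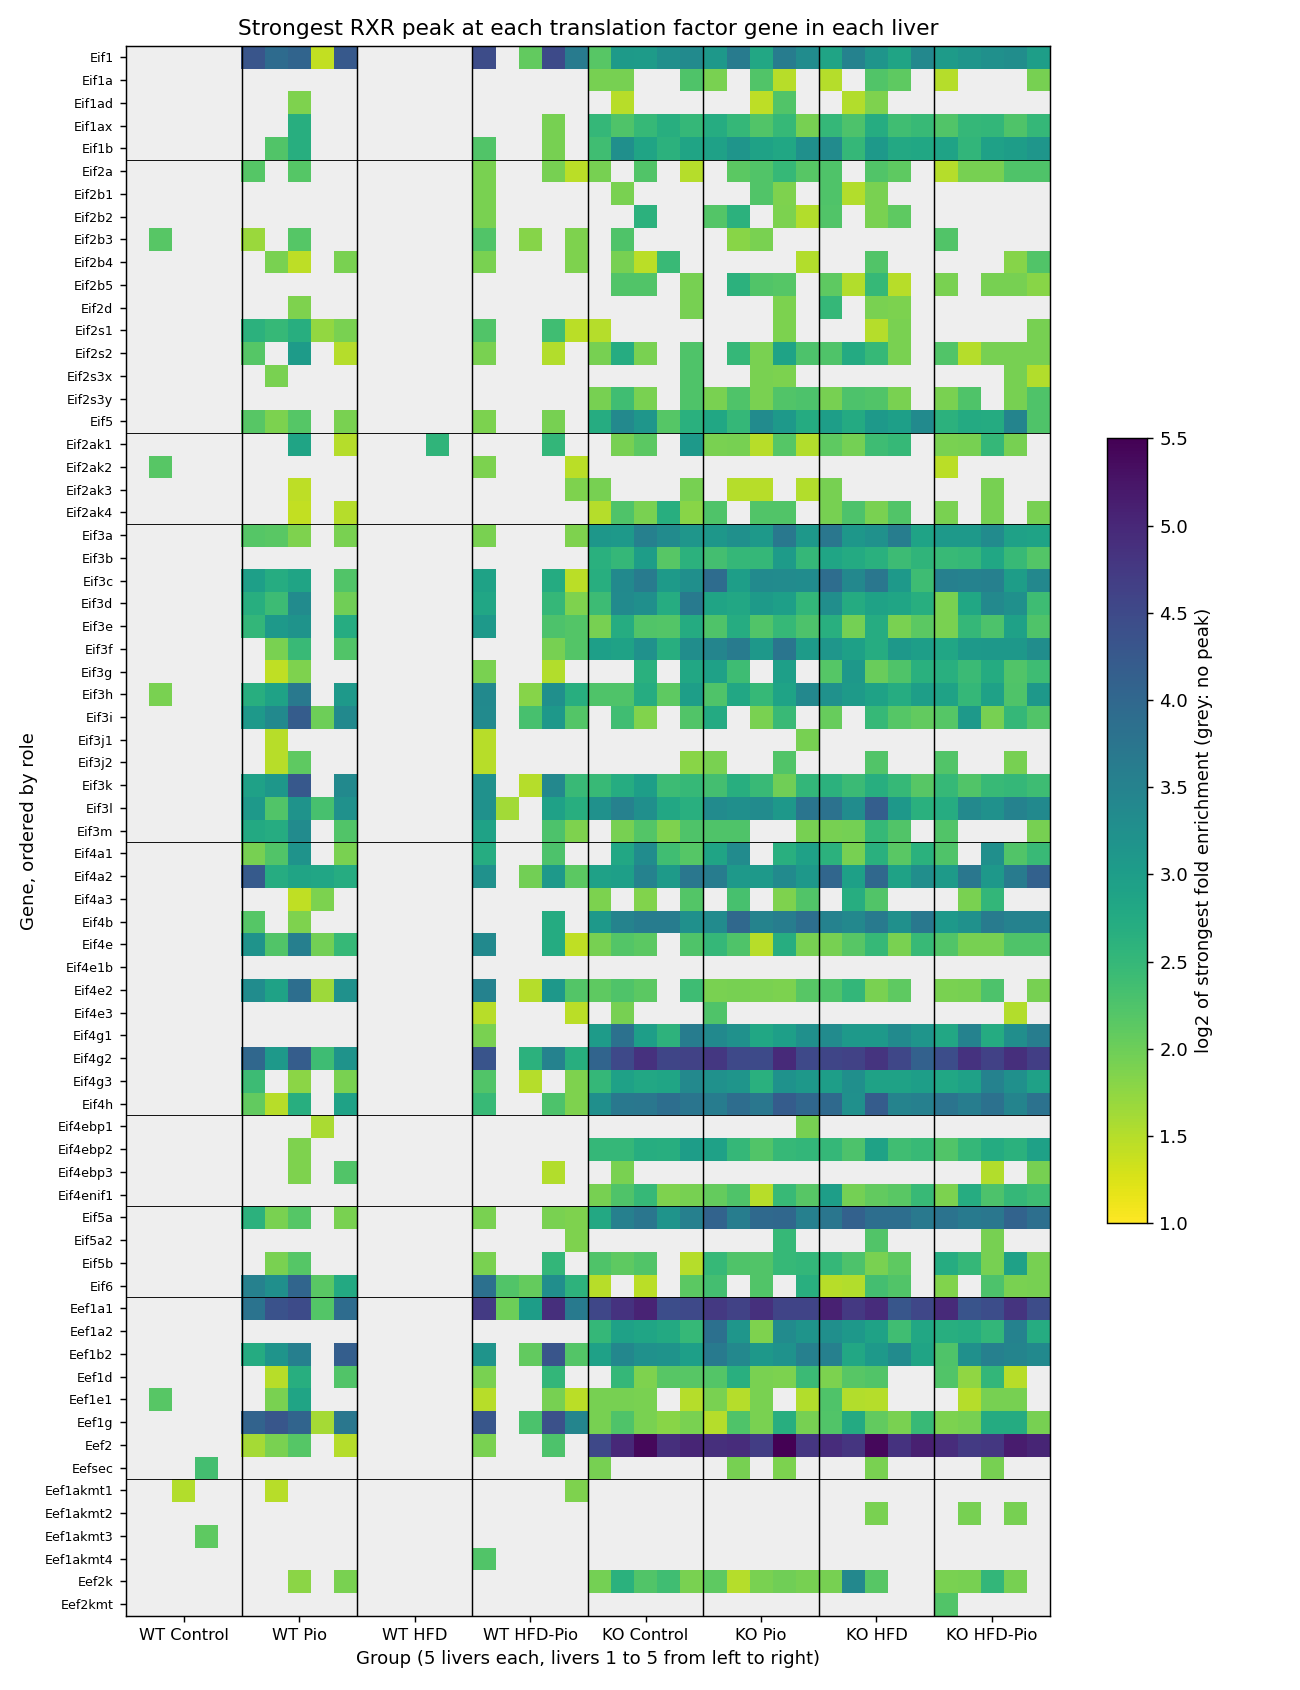
Log2 of the strongest fold enrichment at each of the 69 translation factor genes (rows, ordered by role) in each of the 40 livers (columns, 5 per group), with grey for no peak. The untreated WT columns are grey except for 8 gene and liver pairs, treated WT columns are partly filled, and KO columns are filled for most genes.

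The same drug contrast in KO livers showed few differences. No member was gained or lost in KO Pio relative to KO Control (0.811% and 0.187% of all genes). A gain needs an untreated group with no peak in any liver, which held for 10 members in KO Control and 12 in KO HFD. In WT Control and WT HFD it held for 62 and 68 members. Few members could therefore be gained in KO, and these counts cannot be set beside those of WT. In KO HFD-Pio relative to KO HFD none was gained (0.474%) and 3 were lost (0.296%), the eIF2B subunit genes Eif2b1 and Eif2b2 and the initiation factor gene Eif2d, each with 3 livers in KO HFD and 0 in KO HFD-Pio. Their fold enrichment in KO HFD was 2.88 to 5.68, and none of the 3 was lost when KO HFD liver 1 or liver 3 was left out. With limma on log2 fold enrichment at genes with a peak in all 10 livers, no member passed in KO Pio against KO Control (28 members tested, lowest adjusted p 0.711) or in KO HFD-Pio against KO HFD (29 tested, lowest 0.98). Without adjustment 2 members were under 0.05 in the first contrast and none in the second. By Fisher's exact test on livers with a peak no member was under an unadjusted 0.05 in either contrast, and 0.867% and 0.309% of genes tested were so with more livers and 0.0722% and 0.0794% with fewer. Of the 2207 genes tested by limma in the first contrast 0.0453% were called higher and 0.544% lower, and none was called in the second. The numbers of members with more and fewer livers were 19 and 4 on control diet (30.6% and 6.45% of those with a peak) and 15 and 9 on high-fat diet (23.8% and 14.3%). In other genes with a peak the shares were 49.2% and 17.6% on control diet and 41.2% and 22% on high-fat diet. Whether the effect of the drug differed between the genotypes was not tested.

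The comparison of genotypes under the drug asked which genes with a peak in treated WT livers also had one, at any place in the gene, in KO livers. Treated WT livers are the same ones as in the drug contrasts above. No member was gained in WT relative to KO on either diet (2.33% and 1.7% of all genes). Such a gain needs a KO group with no peak in any liver, which held for 8 members in KO Pio and 10 in KO HFD-Pio. Most members could therefore not be gained. On control diet 8 of 69 members were absent from WT Pio and recurrent in KO Pio, against 10.8% of all genes: Eef1a2, Eif1a, Eif2b2, Eif2b5, Eif2s3y, Eif3b, Eif4enif1 and Eif4g1. On high-fat diet 8 of 69 were absent from WT HFD-Pio and recurrent in KO HFD-Pio, against 11.1% of all genes: Eef1a2, Eef2k, Eif2ak4, Eif2b5, Eif2s3y, Eif3b, Eif4ebp2 and Eif4enif1. Both member counts lay close to the shares of all genes. Over all 32 members gained with the drug in WT on either diet, 28 had a recurrent peak in each of the 4 KO groups (87.5%), as did 49.2% of the 2388 other genes so gained. A further 14 members (20.3% of the 69) were recurrent in all 4 KO groups and in no WT group, as were 13.1% of all other genes. Gained or not, 60.9% of all members and 20.1% of all other genes were recurrent in all 4 KO groups. The 87.5% and 49.2% among gained genes therefore start from unlike shares.

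By Fisher's exact test with Benjamini-Hochberg adjustment no member passed in either genotype contrast, with lowest adjusted p values of 0.0736 and 0.0765. At an unadjusted p under 0.05, 8 of 63 members tested had fewer livers and 1 had more (Eif2s1) in WT Pio than in KO Pio. Of all genes tested, 20.9% had fewer and 2.36% had more. In WT HFD-Pio 10 of 64 members tested had fewer livers than in KO HFD-Pio, against 20% of all genes tested. The exact permutation test on log2 fold enrichment, with livers without a peak set to a fold enrichment of 1, gave 19 members lower in WT Pio and 18 lower in WT HFD-Pio at an adjusted p of 0.0364 and 0.0406 each (21.1% and 19.1% of genes tested), and none higher (0.73% and 0.48%). These are 30.2% and 28.1% of the 63 and 64 members tested. Eef2 differed most, by -3.52 on the log2 scale on control diet and by -4.09 on high-fat diet. When Fisher's test was run only on genes that could reach an unadjusted 0.05, 5 and 4 members passed, all with fewer livers in WT. Of all those genes, 29.1% and 30% passed with fewer livers in WT and 1.26% and 0.71% with more.

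Strength could be compared where every liver of both groups had a peak, which 8 members and 255 genes did for WT Pio and KO Pio. By limma, after centring each library on its median, Eef1g was higher in WT Pio by a log2 difference of 1.43 (SE 0.267, adjusted p 9.71e-05), or 2.7-fold, and Eif4e2 by 0.98 (SE 0.222, adjusted p 0.000919), or 1.97-fold. Lower in WT Pio were Eif4g2 (log2 difference -1.34, SE 0.233, adjusted p 4.12e-05), Eef1a1 (-0.99, SE 0.228, adjusted p 0.00103) and Eif3l (-0.61, SE 0.246, adjusted p 0.0406). Eif1, Eif4a2 and Eif4e did not pass, with log2 differences of 0.24, -0.23 and 0.46 by limma and adjusted p values of 0.504, 0.527 and 0.138. Of the 255 genes, 20.4% were called higher and 27.5% lower. Without centring Eef1g, Eif4e2 and Eif4g2 still passed with limma, and Eef1a1 (adjusted p 0.116) and Eif3l (0.214) did not. For Eef1g the exact permutation test gave a p of 0.0397 and an adjusted p of 0.142, with WT Pio liver 4 among the KO livers. For WT HFD-Pio against KO HFD-Pio only Eef1a1 had a peak in all 10 livers, and it was lower in WT HFD-Pio by a limma log2 difference of -0.94 (SE 0.243, adjusted p 0.00437), with 11.4% of 167 genes higher and 23.4% lower. That call was lost without centring, at an adjusted p of 0.212 by limma. Neither WT drug contrast had a member with a peak in all 10 livers.

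Within the genes, the peaks lay on exons. In WT Pio 480 member peaks were called, of which 378 had their summit in coding sequence (78.8%), 52 in a 3′ UTR, 12 in a 5′ UTR, 7 in another exon and 31 in an intron. Exons thus held 93.5% of member summits in WT Pio and 92.3% in WT HFD-Pio, against 46.6% and 42.1% of summits in other genes. In the KO groups exons held 88.4% to 92.5% of member summits and 84.1% to 86% of those in other genes. The 8 member peaks of WT Control and the 1 of WT HFD all had their summit in an intron, where 4.66% and 4.58% of other genes' summits were exonic. Peak length differed between libraries. In the 6 treated WT libraries of short fragment estimate, which held 711 member peaks, the median member peak measured 50 to 67 bp and the median peak in other genes 45 to 50 bp. In the 4 other treated WT libraries, with 107 member peaks, the medians were 196 to 326.5 bp and 169 to 264 bp, and in KO libraries 175 to 236 bp and 143 to 212 bp. Peaks with every base in an exon, all libraries of a group together, were 77.9% and 82.8% of member peaks in treated WT and 31.9% to 34.2% in KO. When only bases outside exons were allowed to make an overlap, no member was gained in WT Pio and 1 in WT HFD-Pio.

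Exons along 1 transcript per gene were then examined singly. Over 772 exons of 1 transcript per member, 72 exons (9.33%) had a peak in at least 3 livers of WT Pio, 33 (4.27%) in WT HFD-Pio and 178 to 204 in the KO groups (23.1% to 26.4%). Of the 209794 exons of other genes, 1.04%, 0.529% and 4.15% to 5.9% had one. At least 1 such exon was found at 23 members in WT Pio, 18 in WT HFD-Pio and 36 to 42 in the KO groups. These are fewer than the 29, 24 and 43 to 48 members called recurrent, and Eef1d had no such exon in any group. The first exon was covered in this way at 3, 2 and 5 to 8 of the 68 members with several exons, and the last exon at 12, 9 and 24 to 29. In other genes with several exons the first exon was covered at 0.376%, 0.217% and 1.33% to 2.23% and the last at 3.16%, 1.66% and 15.9% to 20.3%, so last exons exceeded first exons there too. Eif4g2 was covered at all 22 exons in each KO group, at 6 in WT Pio and at 1 in WT HFD-Pio. Eef2 was covered at 13 or 14 of its 14 exons in KO, at 1 in WT Pio and at none in WT HFD-Pio, whereas Eef1g was covered at 6 of 10 exons in WT Pio, 3 in WT HFD-Pio and 1 or 2 in KO. In the window from 250 bases before to 50 after the gene start, no member had a recurrent peak in any WT group, and in KO only Eif3f, Eif4g2 and Eef2 had one (2 or 3 members per group, or 2.9% to 4.35%). Of other genes, 0.0549% to 0.137% had one in the WT groups and 0.329% to 0.535% in the KO groups. Of the RefSeq promoters of that window on GRCm38, 68 belonged to 53 members, and none held a DR1 match with at most 2 mismatches, against 3.87% of the promoters of other genes.

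**Figure D5:**
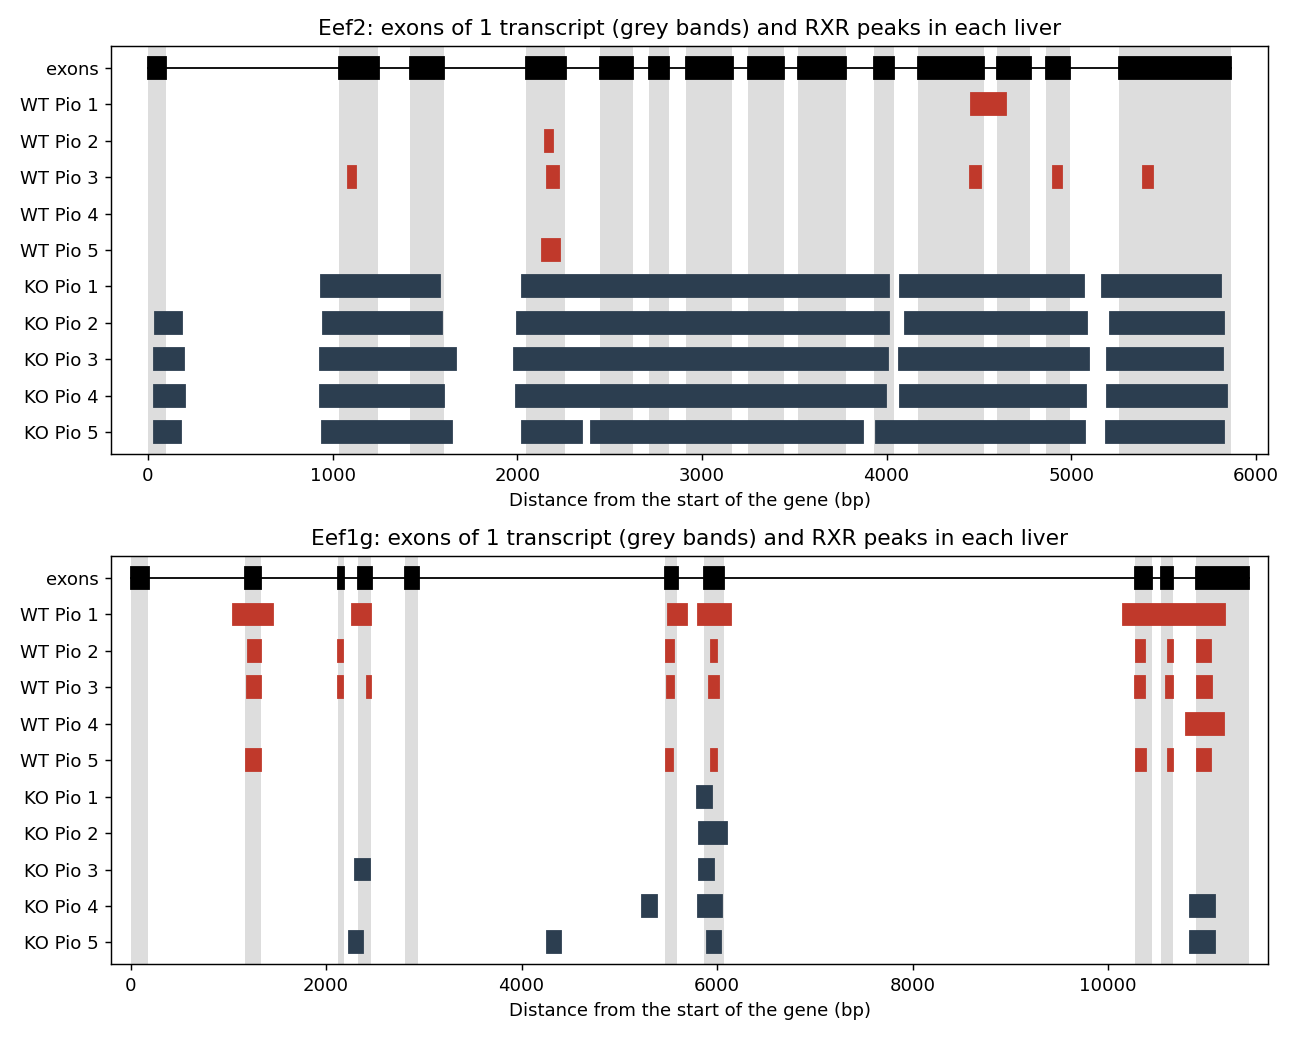
RXR peaks of each WT Pio and KO Pio liver (rows) along Eef2 and Eef1g, with exons of 1 transcript as black boxes and grey bands; the x axis is the distance from the gene's start in bp. At Eef2 the KO peaks cover 13 or 14 of 14 exons and the WT peaks 1 exon in at least 3 livers, while at Eef1g the WT peaks cover 6 of 10 exons in at least 3 livers.

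The strongest peaks of treated WT and of KO lay at the same place in some members and apart in others. At Eif1 both summits were in the 5′ UTR of exon 1, 9 bp apart, with the WT HFD-Pio liver 4 peak at chr11:100320008-100320149 (fold enrichment 22.4). At Eef1b2 they were 8 bp apart in coding exon 1, and at Eif4g2 41 bp apart. At Eef1a1 the strongest treated WT peak, chr9:78478476-78478857 in WT HFD-Pio liver 4 (29.8), lay in the coding part of the last exon, 283 bp from the summit of the strongest KO peak in exon 7 of 8. At Eef1g the strongest WT peak was in exon 10 of 10, chr19:8977952-8978101 (21), and the strongest KO peak in exon 7, with summits 5097 bp apart. At Eef2 the strongest KO peak ran for 2003 bp, chr10:81178627-81180629 (45.4), over exons and introns, and the strongest WT peak for 47 bp in exon 11 (4.76).

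Because these summits carry the highest values, the closest DR1 alignments beside 3 of them are shown, with the 13 aligned bases in capitals and 4 or 5 mismatches each, more than the 2 allowed above. Coordinates are mm10.
Eef1a1, WT HFD-Pio liver 4, chr9:78478732-78478761, minus strand, 4 mismatches: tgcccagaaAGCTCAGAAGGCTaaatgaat
Eef2, KO Pio liver 4, chr10:81179615-81179644, plus strand, 4 mismatches: ggacagcgAGGACAAAGACAAggagggcaa
Eef1g, WT HFD-Pio liver 4, chr19:8978090-8978119, plus strand, 5 mismatches: gatcttcaAGTGAACAAGTCTtgccagtcg

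Peaks were also counted at other genes of translation and its control. Of 32 listed genes (termination, poly(A)-binding, ribosome rescue, mTOR signalling, the stress response to eIF2 phosphorylation and mitochondrial translation), none had a recurrent peak in untreated WT, 8 had one in WT Pio (25%), 4 in WT HFD-Pio (12.5%) and 16 to 20 in the KO groups (50% to 62.5%). The shares of all genes were 12.7% and 10% in treated WT and 24.3% to 29% in KO. Pabpc1, the poly(A)-binding protein that contacts eIF4G, had a peak in all treated WT and all KO livers. Tufm, the mitochondrial counterpart of eEF1A, had 4 livers in each treated WT group and 0 or 1 in the KO groups. Tsc2 and Rheb, which act upstream of mTOR, had 5 livers in each KO group and at most 1 in any WT group. Atf4, whose translation rises when eIF2 is phosphorylated, had 4 WT Pio livers, 2 WT HFD-Pio livers and all KO livers.

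Peaks in marker genes of liver and of other tissues were counted in the same way. More neural, intestinal and smooth muscle genes were recurrent in treated than in untreated WT, as was 1 skeletal muscle gene, Acta1. Of all genes, 12.7% (WT Pio) and 10% (WT HFD-Pio) were recurrent with the drug. The shares were 2.21% (WT Control) and 0.515% (WT HFD) without it and 24.3% to 29% in KO. Of 10 liver markers, none had a recurrent peak in any WT group and only Ttr, the plasma carrier transthyretin, had one in KO, and Apoa2, Apob and Fgb had no peak in any liver. Of 7 neural genes, 1 was recurrent in WT Control, 3 in each treated WT group and 5 in each KO group (Snap25, Syt1, Map2, Stmn2 and Gap43, in all 20 KO livers). Of 4 intestinal genes, Vil1, Lgals4 and Krt20 were recurrent in both treated WT groups and none in KO, and Fabp2 had no peak. Of 4 skeletal muscle genes, the actin gene Acta1 had a peak in all treated WT and all KO livers, and Ckm, Myh4 and Tnnt3 were recurrent in no group. Of 3 smooth muscle genes (Acta2, Myh11 and Tagln), 3 were recurrent in WT Pio, 2 in WT HFD-Pio, 2 or 3 in the KO groups and none in untreated WT. Of 4 blood and immune genes, the haemoglobin gene Hbb-bs had a peak in all KO livers and no WT liver. The other 3 of that list stood the other way, with 3, 2 and 1 WT Pio livers at Cd74, Lyz2 and Ptprc and at most 1 liver in any KO group. These are peaks at genes and not transcript levels, and their part in the result at translation factors was not tested.

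Several members have near-identical pseudogene copies elsewhere in the genome, where short reads can be shared. Of the 69 members, 19 had in all 45 annotated pseudogenes with at least 95% identity over at least 200 bp. These copies had a recurrent peak at 38 of 45 in WT Pio and 28 in WT HFD-Pio, at none in untreated WT, and at 18 to 20 in the KO groups. Of all 13523 pseudogenes the shares were 11% and 6.91% in treated WT and 3.31% to 3.93% in KO. Eef1a1 had 9 such copies, all with a recurrent peak in both treated WT groups and 4 of them in each KO group. Eif1 had 12, of which 12 and 6 were recurrent in treated WT and at most 1 in KO. Values at these members and at their copies are therefore uncertain in how reads were divided between them.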

How the data were processed

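RXR ChIP-Seq was performed in 40 mouse livers with 40 matched inputs, and peak tables were analysed for the ChIP libraries alone. Per the labels the authors sequenced single 50-base reads. They aligned them to mm10 with Novoalign (version not given in the sources used here). Peak calling used MACS2 2.1.1.20160309, with an input for every library and 1 tag kept per position. The deposited tables give, per the file headers, the fold enrichment (a ratio of ChIP to local background at the summit), the pileup (the signal at the summit, in tags), and -log10 p and -log10 q computed by MACS2. The study's methods name 1 RXR antibody, and the labels name it for all ChIP samples but 15.

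Members and gene lists were chosen with earlier results of these data known. Peaks were joined to genes of GENCODE M21 by an overlap of at least 1 bp. Groups came from the labels, which do not pair livers. Genes were tested across the whole table by Fisher's exact test on livers with a peak and, at genes with a peak in all 10 livers, by limma 3.58.1 (R 4.3.3) with a trend on log2 fold enrichment centred on each library's median, with Benjamini-Hochberg adjustment and a threshold of 0.05. Genes named in full were up to 10 per contrast of treated WT with untreated WT or with KO with the largest difference in livers, ties ordered by fold enrichment, and a preset list. Other members named by value were added for their role. Alternatives were other q cutoffs, exons only or outside exons, lists of equal length, other liver minimums, a replicate block, permutation, and leaving out each liver or the short-fragment libraries. The searches for DR1 and for pseudogene copies (blastn 2.17.0) were chosen after seeing the data. On simulated data limma recovered 92% of 2-fold changes for KO Pio against KO Control (2207 genes) and 50% for WT Pio against KO Pio (255 genes). Fisher's test after adjustment recovered 0 of 200 changed genes. Its smallest possible p is 0.00794, at which so few changed genes cannot pass adjustment. That 0 follows from the setting and cannot be set beside the recovery by limma. Python 3.11.15, pandas 2.3.3, scipy 1.17.1 and pysam 0.24.0 were used.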

Additional observations from a re-analysis of the deposited data

Results flagged for a closer look

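In 9 of 102 groups of values examined, the gap between the highest or lowest liver and the next exceeded 0.71 of the range. About 1 in 20 groups would do so with independent, normally distributed values. Many of these groups share livers, so 9 of 102 cannot be read against that rate. The number of members with a peak was highest in KO Pio liver 4 (52) and in WT HFD liver 4 (1, at Eif2ak1, with 0 in the other WT HFD livers). In WT HFD the gap fills the whole range by construction, as only liver 4 differs from 0. KO Pio liver 4 also had the highest fold enrichment of its group at Eef2 (45.4) and at Eif3b (8.2). The other highest values were Eef1a2 in KO HFD-Pio liver 4 (11.3), Eef1g in KO Control liver 2 (4.72), Eif4a2 in WT Pio liver 1 (18.6) and Eif4e2 in KO Pio liver 5 (4.5). Eif1 was lowest in WT Pio liver 4 (2.65), the liver with the fewest member peaks of its group.

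Pseudogenes lie outside the gene set of the comparisons, and their peaks were counted in the same way. Recurrent peaks were found at 38 of 45 near-identical copies of members in WT Pio and at 28 in WT HFD-Pio, and at 0 in WT Control and WT HFD. How reads were divided between members and copies was not tested.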

How the results depend on the processing

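When all libraries were held to -log10 q of 5 or more, members gained were 17 in WT Pio against WT Control, 6 in WT HFD-Pio against WT HFD, 1 in KO Pio against KO Control and 3 in WT Pio against KO Pio, members lost were 0 in KO HFD-Pio against KO HFD and 14 in WT HFD-Pio against KO HFD-Pio, and 7 passed Fisher's test in WT Pio against KO Pio. When all were held to q of 0.05 or less, 13 were gained in WT HFD-Pio against WT HFD and 4 passed Fisher's test in WT HFD-Pio against KO HFD-Pio. Outside exons 0 and 1 were gained in the WT drug contrasts, 1 and 0 were lost in the KO drug contrasts (control and high-fat diet) and 1 and 2 in the genotype contrasts, and the difference in livers at Eif2ak3 for WT Pio against KO Pio turned to 1. With exons only, 6 and 4 members passed Fisher's test in the genotype contrasts. With lists of equal length 8 and 3 were gained in the WT drug contrasts, 7 and 4 in the genotype contrasts, and 0 were lost in KO HFD-Pio against KO HFD. With a minimum of 4 of 5 livers 12 were gained in WT HFD-Pio against WT HFD and 0 lost in KO HFD-Pio against KO HFD.

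With the 2 treated livers of longer fragment estimate 11 and 2 were gained in the WT drug contrasts, and without the short-fragment libraries 20 and 30 were lost in the genotype contrasts (at least 3 of 5 livers cannot be asked of 2, so the gained counts could not be given). The permutation test passed 19 and 18 members in the genotype contrasts. Fisher's test on genes able to reach 0.05 passed 2 in WT HFD-Pio against WT HFD and 5 and 4 in the genotype contrasts. Limma at genes with a peak in at least 4 of 5 livers of both groups called 13 and 6 members in the genotype contrasts, and without centring 3 and 0. The cause of these differences was not tested.

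Leaving out 1 liver at a time gave 23 to 29 and 12 to 24 gained members in the WT drug contrasts (12, 14 and 12 without WT HFD-Pio livers 1, 4 and 5), 0 to 1 gained and 0 to 1 lost in KO Pio against KO Control, and 0 to 3 lost in KO HFD-Pio against KO HFD (0 without KO HFD liver 1 or 3). In the genotype contrasts 0 to 1 were gained on either diet, 6 to 11 and 7 to 11 were lost, 0 to 7 (7 without WT Pio liver 3) passed Fisher's test on control diet, and limma called 4 to 14 (14 without WT Pio liver 4) and 1 to 3. Same-numbered livers were not paired by the labels, in no contrast did every pair correlate above 0.1, and in no contrast did every liver correlate best with its own number (at most 2 of 5 did). With the replicate block limma again called 5 and 1 members in the genotype contrasts and 0 in the KO drug contrasts, and an exact sign test over 5 pairs called 0 in all contrasts, where it cannot reach 0.05. Peak lists without reads limit what presence in 5 livers can show.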
